A study of Mus musculus with 41 samples.

Results

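The imprinted Dlk1-Dio3 region carries a large group of miRNAs, and 71 of the 637 probes of a mouse spleen miRNA array carried a name from it. The probes were chosen by name alone, as every probe numbered after a miRNA of the region. Of the 43 miRNA numbers looked for, 40 had a probe and 3 (miR-369, miR-453 and miR-544) had none. All 71 probes matched 1 of 42 RefSeq miRNA genes, and all of these lie on chromosome 12. The 41 hairpins that RefSeq places on the GRCm38.p6 build are all on the plus strand, from the start of Mir673 at 109571990 to the end of Mir410 at 109743795.

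Total RNA came from spleens of C57BL mice that had received C. parvum or, as controls, saline, and each array held biotin-labelled cDNA from 5 ug of RNA. The groups were NOS2-/- mice with intact p53 (called NOS2KO here; 5 C. parvum and 5 control arrays), p53-/- mice with intact NOS2 (p53KO; 5 and 4), p53-/-NOS2-/- mice (DKO; 6 and 6) and p53+/+NOS2+/+ mice (WT; 5 and 5). NOS2 is the inducible nitric oxide synthase and p53 a tumour suppressor transcription factor, and the labels state no promoter or cell type for either deletion. They also give no dose, time or age, and do not spell out C. parvum. The study's description speaks of 4 or 5 mice in a group and of the WT and the single knockouts. It does not mention the DKO, and nothing states that each array is a separate mouse, so p-values measure the spread between these arrays.

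In mammals this region is imprinted. The protein-coding genes Dlk1, Rtl1 and Dio3 are expressed from the paternal copy, and long non-coding RNAs, among them Meg3, Rian and Mirg, from the maternal one. The miRNAs are cut from those maternal RNAs, so many of them are thought to be made from shared precursors, and they are best known from the embryo, the placenta and the brain. The probes fell into 2 lists along the chromosome. The first group (18 probes) runs from miR-673 to miR-370 and holds the miRNAs antisense to Rtl1, such as miR-127 and miR-136. The second group (53 probes) is the long array from miR-379 to miR-410.

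The sequences of the miRNAs on which the results turn are given from RefSeq (GRCm38.p6), 5′ to 3′, with the seed (bases 2 to 8, the part that pairs with target mRNAs) in capitals. Both arms of these members are shown where RefSeq has both, because their probe names do not say which arm a probe reads. The ending -p on some names has no stated meaning in these sources.
The first are miR-329, miR-487b, miR-667 and miR-543, the members with the smallest adjusted p over the 4 genotypes together, with miR-495, a look-alike of miR-543, and miR-323.
miR-329-5p: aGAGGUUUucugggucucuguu
miR-329-3p: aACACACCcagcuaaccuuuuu
miR-487b-5p: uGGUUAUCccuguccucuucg
miR-667-5p: cGGUGCUGguggagcagugagcacg
miR-667-3p: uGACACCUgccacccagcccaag
miR-543-3p: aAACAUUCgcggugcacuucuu
miR-495-3p: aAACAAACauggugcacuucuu
miR-543-5p: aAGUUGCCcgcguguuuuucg
miR-495-5p: gAAGUUGCccauguuauuuuucg
miR-323-5p: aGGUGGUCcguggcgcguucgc
miR-323-3p: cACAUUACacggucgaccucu
The next lines are members of the first group whose values differed between sets of arrays or between genotypes.
miR-370-5p: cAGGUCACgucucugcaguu
miR-370-3p: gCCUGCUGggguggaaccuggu
miR-341-5p: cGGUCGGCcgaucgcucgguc
miR-341-3p: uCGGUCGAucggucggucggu
miR-136-5p: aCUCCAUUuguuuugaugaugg
miR-136-3p: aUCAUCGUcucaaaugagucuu
The last pair are the 3p arms of miR-379 and miR-411, which share a seed.
miR-379-3p: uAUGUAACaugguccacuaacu
miR-411-3p: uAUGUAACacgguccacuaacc

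RefSeq held 80 mature sequences for these genes, and they carried 77 distinct seeds. Besides the seed of miR-379-3p and miR-411-3p, GGUUGUC was shared by miR-494-5p and miR-410-5p, and UGGAUAU by miR-376c-5p and miR-376b-5p. The arms of miR-543 and miR-495 did not share a seed as RefSeq sets their first base. They were alike all the same: 18 of 22 compared bases were identical between the 3p arms and 15 of 21 between the 5p arms. Whether probes for such relatives read each other's RNA was not tested. The positions of the main members are chr12:109713503-109713562 for the miR-329 arms, chr12:109727347-109727367 for miR-487b-5p, chr12:109717269-109717325 for the miR-543 arms, chr12:109618270-109618326 for the miR-370 arms and chr12:109595331-109595387 for the miR-136 arms.

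Cluster members differed widely in how many arrays gave them a value. The deposited table holds 1 value per probe and array, which behaves as log2 signal, and 40.4% of its cells are empty. An empty cell has no value, so it sets no upper bound on the signal. Of the 71 member probes, 17 (23.9%) had a value on all 41 arrays, against 227 of all 637 probes (35.6%). A further 9 had a value on 30 to 40 arrays, 13 on 10 to 29, and 32 on fewer than 10, of which 12 had 1 value only. Probes measured on every array made up 4 of 18 in the first group and 13 of 53 in the second. An array had a value for 24 to 41 members.

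Several miRNAs by which the region is usually known were measured on few arrays. miR-127, which lies antisense to Rtl1 and directs cleavage of its mRNA, had a value on 1 array, at 5.73 log2. miR-379, the start of the second group, was measured on 3 arrays and miR-411 on 4. miR-431 was measured on 4 arrays and its -p probe on 22, miR-434-5p on 1, miR-434-3p on 13 and miR-433-5p on 6, while miR-433-3p was measured on 27. Like miR-127, miR-431, miR-433 and miR-434 are antisense to Rtl1. miR-134, known in rat hippocampal neurons for limiting dendritic spine size, had a value on 3 arrays and its -p probe on 37. In the miR-376 family, miR-376a-3p was measured on 12 arrays, miR-376a*-5p on 1 and miR-376b*-5p on 7, while miR-376b-3p was measured on 38. miR-154 had a value on 19 arrays, miR-541-p on 10 and miR-496 on 1.

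A few members were bright. The 5 with the highest mean normalized log2 signal were miR-543-p (15), miR-329 (13.5), miR-495-p (11.8), miR-370 (10.5) and miR-494 (9.99). Since signals of different probes also differ with how well each probe hybridises, this order does not rank the miRNAs' amounts. Each of those 5 was measured on all 41 arrays apart from miR-494, which was measured on 40. The companion probe of miR-543-p, miR-543, was measured on all arrays too, while miR-329-p was measured on 2 arrays, and miR-495 had the -p probe alone.

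**Figure D1:**
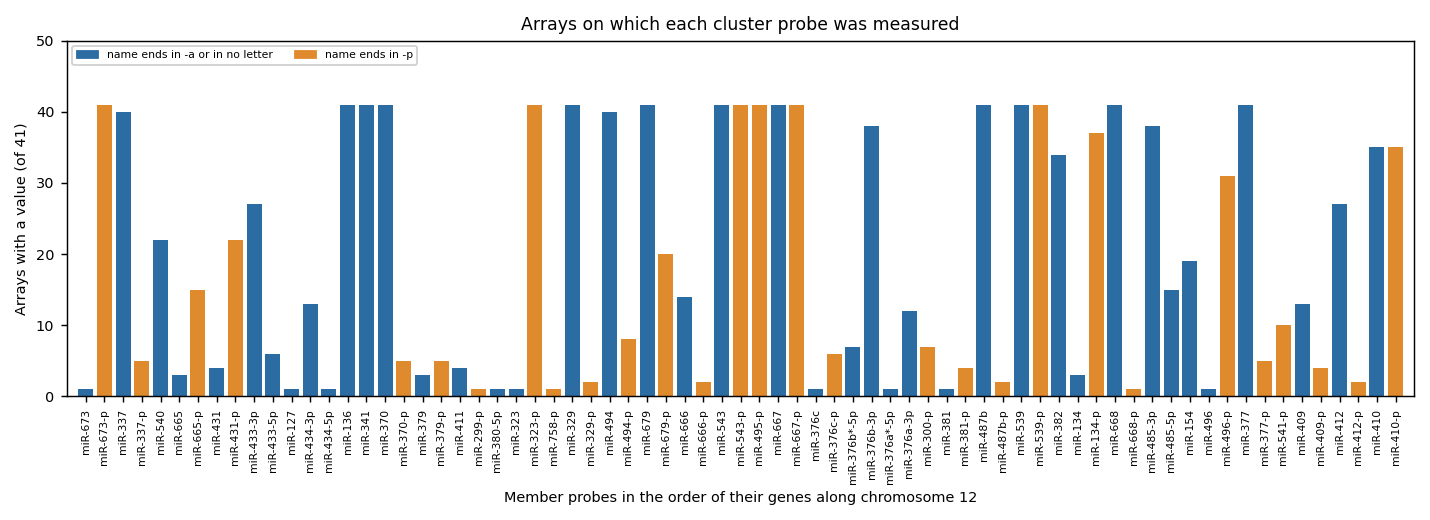
Number of the 41 arrays with a value for each of the 71 cluster probes, in the order of their genes along chromosome 12; blue bars are probes whose name ends in -a or in no letter, orange bars probes whose name ends in -p. Bars that reach 41 (17 probes) stand between many bars under 10 (32 probes), within both the first group (miR-673 to miR-370) and the second (miR-379 to miR-410-p).

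Before any comparison, the arrays fell into 2 sets that the labels do not describe. They were read from 5 probes outside the cluster (miR-194-1-p, miR-326-p, miR-686-p, miR-9*-3-3p and miR-99b-p), whose widest gap in value parted the arrays the same way when an empty cell was taken as a low value. No other way of parting them was shared by more than 2 probes. Set 1 held 18 arrays: all WT arrays, C. parvum replicates 1 and 2 of NOS2KO, controls 1 to 5 of DKO and C. parvum replicate 6 of DKO. Set 2 held the other 23. No label or header says what the sets are. All p53KO arrays were in set 2 and all WT arrays in set 1, and in DKO the sets nearly coincide with treatment. Results were therefore also fitted with the array set as a block, called the blocked fit here.

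miR-370 showed the sets most plainly of all cluster members. Its value lay between 8.24 and 9.44 log2 on the 18 arrays of set 1 and between 11.13 and 12.40 on the 23 arrays of set 2, with nothing in the gap of 1.68. Cut at its own widest gap, it put 41 of 41 arrays in the same set as the 5 outside probes. The next member in this respect was miR-341, also of the first group, which matched 37 arrays, followed by miR-136 with 35. This is a description, because miR-370 was known to split the arrays when the members were chosen. Over the 40 cluster probes that could be cut this way, the median match was 24 arrays.

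C. parvum treatment raised more cluster members than it lowered. Averaged with equal weight over the 4 genotypes, 15 of the 23 members tested in every genotype rose, 1 fell and 7 did not pass (limma, Benjamini-Hochberg adjusted p under 0.05 over all 291 probes tested). Over all probes tested in this comparison, 57.7% passed, 31.6% as higher and 26.1% as lower. Passing was thus common throughout the array. By direction, 82.6% of its tested members had a change above 0, against 55.0% of all probes, and its median change was 0.38 log2 against 0.07. That difference between the list and the array was not tested. In whole spleen RNA, a change in how many cells of a type are present and a change in RNA per cell cannot be told apart.

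The largest mean rise was that of miR-329, a second-group miRNA whose inhibition in mice has been reported to improve vessel growth after ischaemia. Its values on NOS2KO arrays were 15.03, 14.80, 13.93, 13.30 and 14.51 log2 after C. parvum, against 12.49, 12.24, 12.68, 13.10 and 12.52 in controls. Every treated NOS2KO array was above every control array. On p53KO arrays miR-329 read 14.04, 13.38, 13.01, 14.04 and 14.21 after C. parvum, against 12.13, 12.45, 13.01 and 13.10 in controls, and 1 treated array lay within the control range. On DKO arrays its lowest, median and highest values were 13.38, 13.82 and 14.35 after C. parvum, against 12.09, 13.43 and 13.93 in controls. On WT arrays it read 14.21, 14.80, 13.93, 14.04 and 13.72 after C. parvum, against 13.63, 12.49, 13.93, 14.04 and 12.87 in controls. The DKO and WT groups overlapped. The mean change over the 4 genotypes was 1.05 ± 0.17 log2 (SE; 2.07-fold; limma adjusted p = 3.51e-06). Within genotypes it was 1.71 ± 0.35 in NOS2KO (adjusted p = 0.000391) and 1.06 ± 0.37 in p53KO (adjusted p = 0.0279). In DKO and WT, where miR-329 did not pass, it was 0.68 ± 0.32 and 0.75 ± 0.35. The DKO change became 1.13 ± 0.36 in the blocked fit and did not pass there either (adjusted p = 0.0848). The p53KO call passed in 4 of the 9 fits that left out 1 p53KO array, and not in the values as deposited (adjusted p = 0.0607).

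miR-487b was called in the most genotypes, 3 of 4. On NOS2KO arrays it read 9.94, 9.47, 9.38, 9.13 and 8.68 log2 after C. parvum, against 8.88, 8.29, 8.06, 8.49 and 8.13 in controls. On p53KO arrays it read 8.78, 8.17, 8.40, 9.34 and 9.17 after C. parvum, against 8.31, 8.08, 7.74 and 7.90 in controls. In each of these genotypes the lowest treated arrays lay within the control range. On WT arrays it read 9.77, 9.83, 9.34, 9.64 and 9.42 after C. parvum, against 8.75, 8.82, 8.85, 9.10 and 8.98 in controls, with no overlap. The rises were 0.95 ± 0.21 log2 in NOS2KO (adjusted p = 0.00101), 0.76 ± 0.22 in p53KO (adjusted p = 0.00995) and 0.70 ± 0.21 in WT (adjusted p = 0.00767). The DKO groups lay on top of each other, with a median of 8.98 in both and a difference of 0.01 ± 0.19 log2. The 95% interval of that difference ran from -0.38 to 0.39. Its mean change of 0.60 ± 0.10 log2 was past the threshold in each of the 41 fits that left out 1 array.

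miR-543-p, the brightest cluster probe, rose in both single knockouts. On NOS2KO arrays it read 15.73, 15.42, 15.73, 15.30 and 15.55 log2 after C. parvum, against 14.04, 15.17, 14.66, 14.35 and 14.66 in controls, without overlap. On p53KO arrays it read 15.30, 14.66, 14.66, 14.66 and 15.03 after C. parvum, against 13.63, 13.72, 14.66 and 13.38 in controls, and the highest control met the lowest treated arrays. The rise was 0.97 ± 0.23 log2 in NOS2KO (adjusted p = 0.00188) and 1.02 ± 0.24 in p53KO (adjusted p = 0.00258). In DKO the change was -0.07 ± 0.21 and in WT 0.33 ± 0.23, neither past the threshold. Because normalization gives the brightest ranks of each array shared values, repeated readings such as 15.73 come from equal ranks. WT levels were already high, at 15.8 ± 0.14 after C. parvum and 15.5 ± 0.44 in controls (SD, n = 5 each).

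miR-667 and miR-323-p, likewise of the second group, also rose in both single knockouts. miR-667 averaged 10.4 ± 0.29 log2 in treated and 9.74 ± 0.24 in control NOS2KO spleens (SD, n = 5 each). In p53KO it averaged 9.95 ± 0.38 after C. parvum (n = 5) and 9.18 ± 0.25 in controls (n = 4). Those rises were 0.69 ± 0.17 (adjusted p = 0.00332) and 0.77 ± 0.18 log2 (adjusted p = 0.00258), and the changes in DKO (0.16 ± 0.16) and WT (0.26 ± 0.17) did not pass. The other probe of this miRNA, miR-667-p, was measured on all 41 arrays and showed no such rise. Its treated and control means were 8.241 and 8.329 log2 in NOS2KO and 8.223 and 8.19 in p53KO. They were 7.869 and 8.314 in DKO and 8.055 and 8.169 in WT. miR-323-p rose by 1.05 ± 0.28 log2 in NOS2KO (adjusted p = 0.00523) and by 0.83 ± 0.30 in p53KO (adjusted p = 0.0326). Its p53KO call was lost in 3 of 9 fits without 1 array, with an adjusted p of 0.144 when control replicate 5 was left out, and in the values as deposited (adjusted p = 0.0962). In DKO its change was -0.42 ± 0.26 and in WT 0.50 ± 0.28, neither past the threshold. In the blocked fit the DKO changes were 0.17 for miR-487b, 0.12 for miR-543-p, 0.31 for miR-667 and -0.20 log2 for miR-323-p, and none passed.

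**Figure D2:**
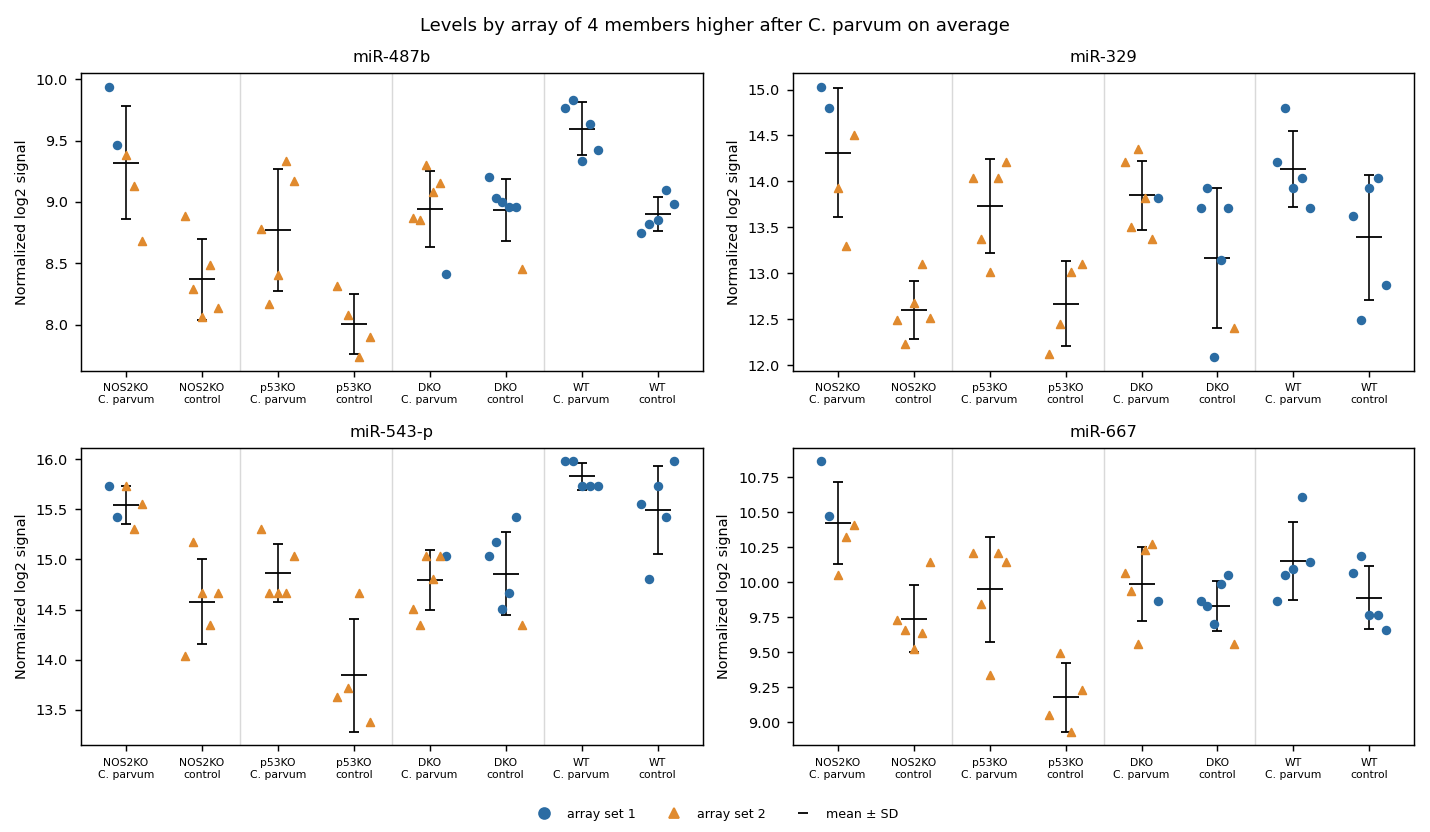
Normalized log2 signal (y axis) of miR-487b, miR-329, miR-543-p and miR-667 on each array of the 8 groups (x axis); circles are arrays of set 1, triangles arrays of set 2, and bars the group mean ± SD. The treated means lie above the control means in NOS2KO and p53KO for all 4 members, while the DKO groups share a median of 8.98 for miR-487b.

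Among the other second-group members the mean rises were smaller. miR-382 rose by 0.61 ± 0.23 log2, and miR-485-3p, from a miRNA known in rat neurons for its part in synapse development, by 0.59 ± 0.17. The mean change was 0.40 ± 0.10 for miR-543, 0.39 ± 0.13 for miR-495-p, 0.38 ± 0.14 for miR-376b-3p, 0.38 ± 0.09 for miR-539, 0.31 ± 0.09 for miR-377 and 0.19 ± 0.08 for miR-679, all past the threshold. miR-410, at the far end of the group, was the member that fell, by 0.70 ± 0.27 log2 (adjusted p = 0.0254; 0.0539 with arrays centred on their medians). It passed in no single genotype, with changes of -0.47 in NOS2KO, -0.18 in p53KO, -0.78 in DKO and -1.39 in WT. The miR-410-p probe, with 2 WT control values, was not tested in the mean. Its treated and control means were 7.768 and 7.453 log2 in NOS2KO and 7.685 and 7.406 in p53KO. They were 7.8 and 7.296 in DKO and 7.963 and 7.257 in WT, so miR-410-p went the other way. With empty cells at a low value, 18 of 41 tested members passed in the mean, all higher. Of all 450 probes tested in that setting 207 passed, 108 higher and 99 lower. The fall of miR-410 was also lost without p53KO C. parvum replicate 4 (limma adjusted p = 0.0523). In the first group, miR-337 rose by 0.46 ± 0.12 and miR-673-p by 0.33 ± 0.09, while miR-136 (0.32 ± 0.15), miR-370 (0.39 ± 0.23) and miR-341 (-0.16 ± 0.11) did not pass. In the blocked fit those 3 did: miR-136 at 0.37 (adjusted p = 0.02), miR-370 at 0.23 (0.0409) and miR-341 at -0.22 log2 (0.0305). miR-494 averaged near 0 (-0.01 ± 0.25 log2, limma adjusted p = 0.967), with opposite directions between genotypes, none past the threshold. Its treated mean was above the control mean in NOS2KO (10.38 and 9.994) and p53KO (10.13 and 9.373). It was below the control mean in DKO (9.546 and 10.06) and WT (9.89 and 10.57).

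How many members were called moved with the scaling, and so did the median of all probes. The median mean effect of all 291 probes was 0.07 log2 after quantile normalization, -0.08 in the values as deposited and 0.17 when arrays were centred on their medians. As deposited, 11 members passed (9 higher, 2 lower) among 65 higher and 102 lower probes (57.4% of all), and after centring 18 members passed, all higher, among 125 higher and 62 lower probes (64.3%). The median change of the members was above that of all probes each time, at 0.25 log2 as deposited and 0.49 after centring. Of the 16 members called, 10 were also called as deposited, 15 after centring and 15 in the blocked fit. With miR-136, miR-370 and miR-341 the blocked fit called 18 members (16 higher, 2 lower), where 60.8% of all probes passed. miR-679 lost its rise as deposited (-0.002 log2, adjusted p = 0.984). Leaving out 1 array at a time, 11 of the 16 were called every time.

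Within genotypes, the same rule called fewer members. NOS2KO had 7 of 28 tested members called, all higher, against 25.1% of all probes tested there (12.1% higher). These were miR-329, miR-323-p, miR-543-p, miR-487b, miR-667, miR-668 (0.89 ± 0.27 log2) and miR-543 (0.58 ± 0.20). In the blocked fit 5 of the 7 passed (19.1% of all probes), and miR-668 (adjusted p = 0.0554) and miR-543 (adjusted p = 0.0843) did not. The 3 NOS2KO C. parvum arrays of set 2, set alone against the controls, gave 3 called members, miR-323-p, miR-329 and miR-543-p (17.8% of all probes). p53KO, whose arrays all lay in set 2, had 6 of 27 members called, all higher, against 29% of all probes (14.2% higher): the 5 named above and miR-485-3p (1.05 ± 0.39 log2).

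WT had 9 of 26 members called, 8 higher and 1 lower, against 34.8% of all probes (17.2% higher, 17.6% lower). Besides miR-487b, the members that rose were miR-412 (1.17 ± 0.39 log2), miR-485-3p (0.84 ± 0.32), miR-673-p (0.76 ± 0.18), miR-543 (0.65 ± 0.20), miR-539 (0.65 ± 0.17), miR-377 (0.64 ± 0.18) and miR-337 (0.62 ± 0.24). The one that fell was miR-341, which read 8.72, 8.44, 8.17, 7.81 and 8.29 log2 after C. parvum, against 8.70, 9.56, 8.90, 9.28 and 9.30 in controls. Its change was -0.86 ± 0.23 log2 (adjusted p = 0.00295), and 1 control array lay among the treated ones. The calls of miR-337 and miR-485-3p each passed in 3 of 10 fits without 1 array.

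DKO had 3 of 31 members called, all higher, against 13.8% of all probes (7.96% higher). miR-370 read 11.13, 11.90, 11.80, 11.51, 11.51 and 9.08 log2 on the 6 treated arrays, against 9.08, 8.998, 8.92, 9.12, 9.23 and 11.31 on the 6 control arrays. The 1 treated array at 9.08 is the 1 of set 1, and the control at 11.31 is the 1 of set 2. The change of 1.71 ± 0.43 log2 became 0.12 ± 0.21 in the blocked fit (adjusted p = 0.757). miR-679 rose by 0.64 ± 0.15 log2 (0.55 blocked, adjusted p = 0.0848). miR-496-p rose by 1.18 ± 0.37 log2 and was the 1 member that passed blocked (1.60 ± 0.42, adjusted p = 0.0366; 2.95% of all probes passed that fit). Its call was lost in the values as deposited (adjusted p = 0.192) and after centring (0.148). Without the block it was also lost when 1 DKO array was left out: C. parvum replicate 1 (limma adjusted p = 0.0824) or 6 (0.0946), or control replicate 1 (0.074), 3 (0.082) or 4 (0.052).

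Over all 35 members tested in at least 1 genotype, 17 were called in at least 1, 10 of them in 1, 6 in 2 and miR-487b in 3. None was called in all 4. Of all probes tested in a genotype, 25.1% (NOS2KO), 29% (p53KO), 13.8% (DKO) and 34.8% (WT) passed. The share of all probes called in at least 1 genotype was not counted. Of the 23 tested in every genotype, 12 had a change above 0 in each of the 4 and 1, miR-410, below 0 in each. The same was not counted over all probes, of which 52.2% to 54.9% had a change above 0 in a single genotype. The median change of all members tested in a genotype was 0.37 log2 in NOS2KO, 0.28 in p53KO, 0.12 in DKO and 0.38 in WT, against 0.07, 0.05, 0.08 and 0.06 for all probes tested there.

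**Figure D3:**
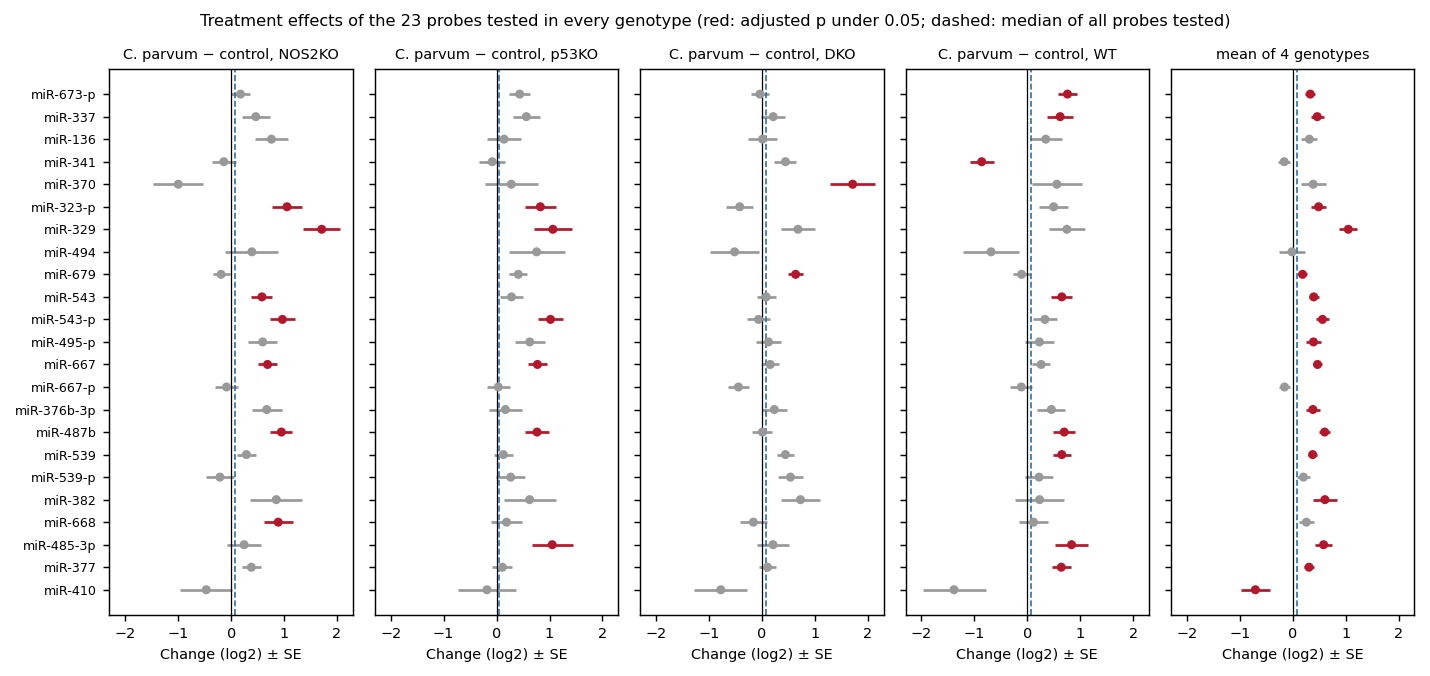
Change with C. parvum (log2, C. parvum minus control, ± SE; x axis) of the 23 cluster probes tested in every genotype (y axis, in chromosome order) in NOS2KO, p53KO, DKO and WT and as their mean; red marks an adjusted p under 0.05 and the dashed line the median of all probes tested. Most points of the mean lie right of the dashed line, with miR-329 farthest right (1.05) and miR-410 farthest left (-0.70).

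Markers of the cells of the spleen moved with treatment as well, on these same arrays. The myeloid miRNA miR-223 (1 probe) spanned 14.21 to 15.73 log2 on the 21 C. parvum arrays and 13.01 to 14.80 on the 20 control arrays. Both erythroid probes measured on every array, miR-451 and miR-486, rose, and their summed level spanned 13.23 to 15.43 and 12.07 to 14.57 log2. Of 6 tested lymphocyte probes 4 fell and 1 rose (summed level 14.70 to 15.46 and 15 to 16.24 log2), both tested endothelial probes fell (13.28 to 14.02 and 13.44 to 14.88), and of 6 tested probes for fibroblasts and smooth muscle 5 fell (12.19 to 13.09 and 12.84 to 13.71). Among nervous system probes 2 of 10 tested rose and 3 fell (11.70 to 12.34 and 11.83 to 12.70), and the defining miR-124a was measured on 25 arrays. Of 2 tested pancreas probes miR-375-p rose (10.31 to 12.58 and 9.79 to 12.23), and of 2 tested probes for striated muscle miR-1 rose (9.15 to 11.16 and 8.59 to 10.58). Of both miR-142 probes, which mark blood cells, miR-142-3p fell (11.29 to 12.75 and 11.50 to 12.78). miR-142, miR-150 and miR-223 were measured on all arrays, but so were the pancreas probe miR-375 and the striated muscle probe miR-1. Being measured on all arrays thus does not tell spleen from other tissues. The part of these shifts in the cluster's changes was not tested.

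Whether a genotype changed the response was asked by the difference between each knockout's treatment effect and that of WT. The 3 differences share the WT arrays. None of 24 tested members passed for NOS2KO (3 had an unadjusted limma p under 0.05; 0.328% of all probes passed) and none of 23 for p53KO (5 unadjusted; 0% of all probes passed). The 95% interval of such a difference was wide, with a median width of 1.52 log2 for NOS2KO and 1.54 for p53KO. For miR-329 it ran from -0.03 to 1.95 log2 in NOS2KO and from -0.71 to 1.34 in p53KO, and for miR-543-p from -0.02 to 1.29 and from 0.01 to 1.36. The last of these intervals lay above 0, but the intervals are not adjusted for the number of probes. Neither member passed after adjustment, so their larger rises in the single knockouts were not shown to differ from WT. Blocked, miR-341 passed for NOS2KO (1.06 log2, adjusted p = 0.0268; 0.984% of all probes passed).

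For DKO 3 of 26 tested members passed (2 higher, 1 lower), against 5.13% of all probes (2.56% in each direction). The treatment effect of miR-341 exceeded that of WT by 1.31 ± 0.31 log2 (adjusted p = 0.00939), that of miR-679 by 0.74 ± 0.22 (adjusted p = 0.0321), and that of miR-412 fell short of it by a difference of -2.36 ± 0.58 (adjusted p = 0.0151). miR-412 was measured on 3 of 6 treated and 5 of 6 control DKO arrays and on 5 treated and 4 control WT arrays. In the blocked fit none of the 3 passed, although 2.89% of all probes did: the differences were 0.75 for miR-341 (adjusted p = 0.0718), 0.66 for miR-679 (0.0841) and -1.48 for miR-412 (0.0718). For miR-487b, whose change was 0.01 log2 in DKO and 0.70 in WT, the difference was -0.69 log2 (95% interval -1.26 to -0.12), and its adjusted p of 0.118 did not pass.

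Untreated spleens were compared next. NOS2KO controls had 6 of 24 tested members called against WT controls, 2 higher and 4 lower (23.1% of all probes passed, 10.3% higher and 12.8% lower). p53KO controls had 7 of 25 called, 2 higher and 5 lower (28.3% of all probes, 15.2% higher and 13% lower). NOS2KO and p53KO controls all lie in array set 2 and WT controls all in set 1, so within these comparisons the genotype and the set cannot be told apart. The blocked fit, which takes the set's effect from the NOS2KO and DKO groups that hold both, left no member for NOS2KO (limma; 2 with an unadjusted p under 0.05; 0% of all probes passed) and miR-543-p for p53KO (0.318% of all probes passed). In that fit miR-543-p was lower in p53KO controls by a change of -1.37 ± 0.32 log2 (adjusted p = 0.0417), against -1.65 ± 0.24 without the block. It read 13.63, 13.72, 14.66 and 13.38 log2 in p53KO controls, against 15.55, 14.80, 15.73, 15.42 and 15.98 in WT controls, with no overlap.

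miR-370 gave the largest differences, 2.98 ± 0.47 log2 higher in NOS2KO controls and 2.68 ± 0.50 higher in p53KO controls than in WT controls. Blocked, they were 0.59 (adjusted p = 0.566) and 0.29 (0.712). miR-341 was higher by 0.89 and 1.29 log2, and blocked by 0.05 and 0.46, past the threshold in neither. Lower in NOS2KO controls were miR-136 (-1.56), miR-543-p (-0.92), miR-543 (-0.58) and miR-377 (-0.52), and lower in p53KO controls, besides miR-543-p, were miR-136 (-1.18), miR-487b (-0.89), miR-495-p (-0.83) and miR-667 (-0.71 log2). For miR-377 the blocked fit turned the NOS2KO difference to 0.02 log2 (adjusted p = 0.980).

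miR-136, which is antisense to Rtl1, was the 1 member called in DKO controls, of 27 tested (11.1% of all probes passed, 6.41% as lower). It read 6.93, 7.81, 7.50, 7.43, 7.76 and 7.39 log2 in DKO controls, against 8.84, 9.12, 8.63, 8.73 and 8.68 in WT controls. No DKO control reached the lowest WT control. The difference was -1.33 ± 0.29 log2 (adjusted p = 0.00353), -1.20 in the blocked fit (adjusted p = 0.00356; 11.7% of all probes passed), and -1.32 within set 1, which holds 5 DKO and all 5 WT controls (adjusted p = 0.000149). It passed in all 11 fits without 1 array. In those controls miR-136 thus differed from WT in all 3 knockouts without the block, and in DKO also within 1 set. miR-412 was 1.12 ± 0.39 log2 higher in DKO controls and did not pass (adjusted p = 0.0563), but did in the blocked fit (0.0231), within set 1 (0.0259), as deposited (0.0372) and centred (0.0405). Between p53KO and NOS2KO controls, which share array set 2, none of 25 tested members passed (limma; 5 with an unadjusted p under 0.05; 0.912% of all probes passed).

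**Figure D4:**
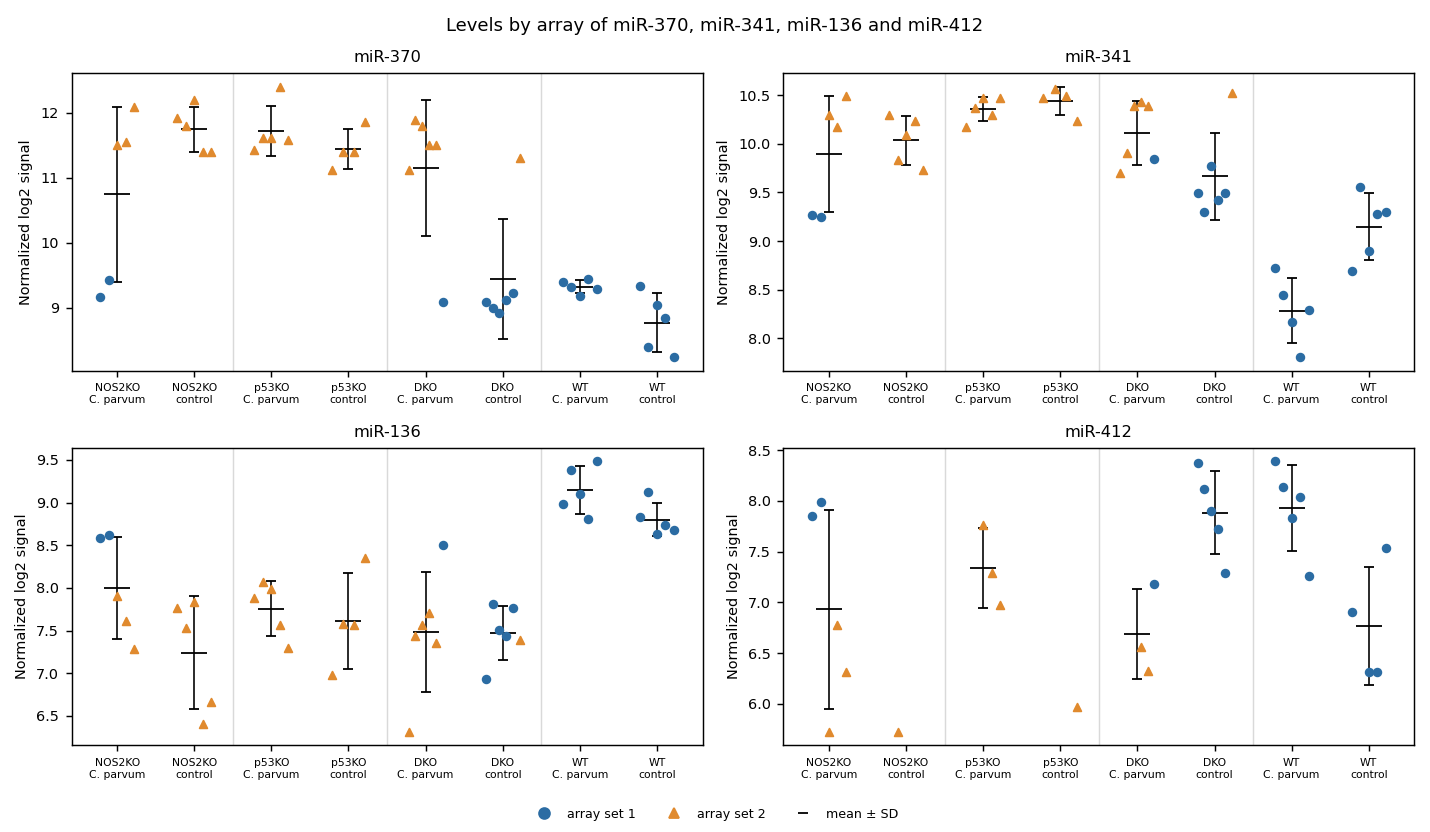
Normalized log2 signal (y axis) of miR-370, miR-341, miR-136 and miR-412 on each array of the 8 groups (x axis); circles are arrays of set 1, triangles arrays of set 2, and bars the group mean ± SD. All circles of miR-370 lie at or below 9.44 and all triangles at or above 11.13, whereas the DKO control circles of miR-136 lie below the WT control circles of the same set.

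Shared precursors raise the question of whether the members vary together from array to array. After group means were removed, 26 member probes measured on at least 30 arrays formed 317 pairs with enough shared arrays. Their median Pearson correlation was 0.03 (median Spearman 0.04), and 55.8% of pairs were above 0. Over all 330 probes measured as often, the median was 0.004 and 50.6% of pairs were above 0. Without miR-370 the remaining 25 probes gave 292 pairs with a median of 0.04 and 58.2% above 0. With the array set also removed, the median was 0.03 with miR-370 and 0.03 without it. In the values as deposited the median was below 0, at -0.01, against 0.02 for all probes. Leaving out 1 array at a time moved the quantile-normalized median of 0.03 between 0.02 and 0.04. Its jackknife standard error was 0.03. These pairs share arrays and normalization, and a correlation of this size is no finding.

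Whether the lists differed in this respect was not tested. Within the second group the 202 pairs had a median correlation of 0.05, the 105 pairs between the groups 0.02, and the 10 pairs within the first group -0.19. miR-370 had the lowest median with its partners, -0.14, which became 0.03 with the array set removed. miR-487b and miR-329 had the highest, at 0.17 each (0.13 and 0.20 with the set removed), and were above 0 with 19 of 25 partners each. The highest single pair was miR-337 with miR-487b (r = 0.67, Spearman 0.55, 40 arrays), which lie in different groups of the cluster and kept r = 0.66 with the set removed. The next, miR-341 with miR-370, had r = 0.58 over 41 arrays and -0.17 with the set removed. It was followed by miR-410 with miR-543-p (0.52) and miR-539 with miR-679 (0.49). The lowest was miR-370 with miR-377 (-0.46, and 0.20 with the set removed).

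**Figure D5:**
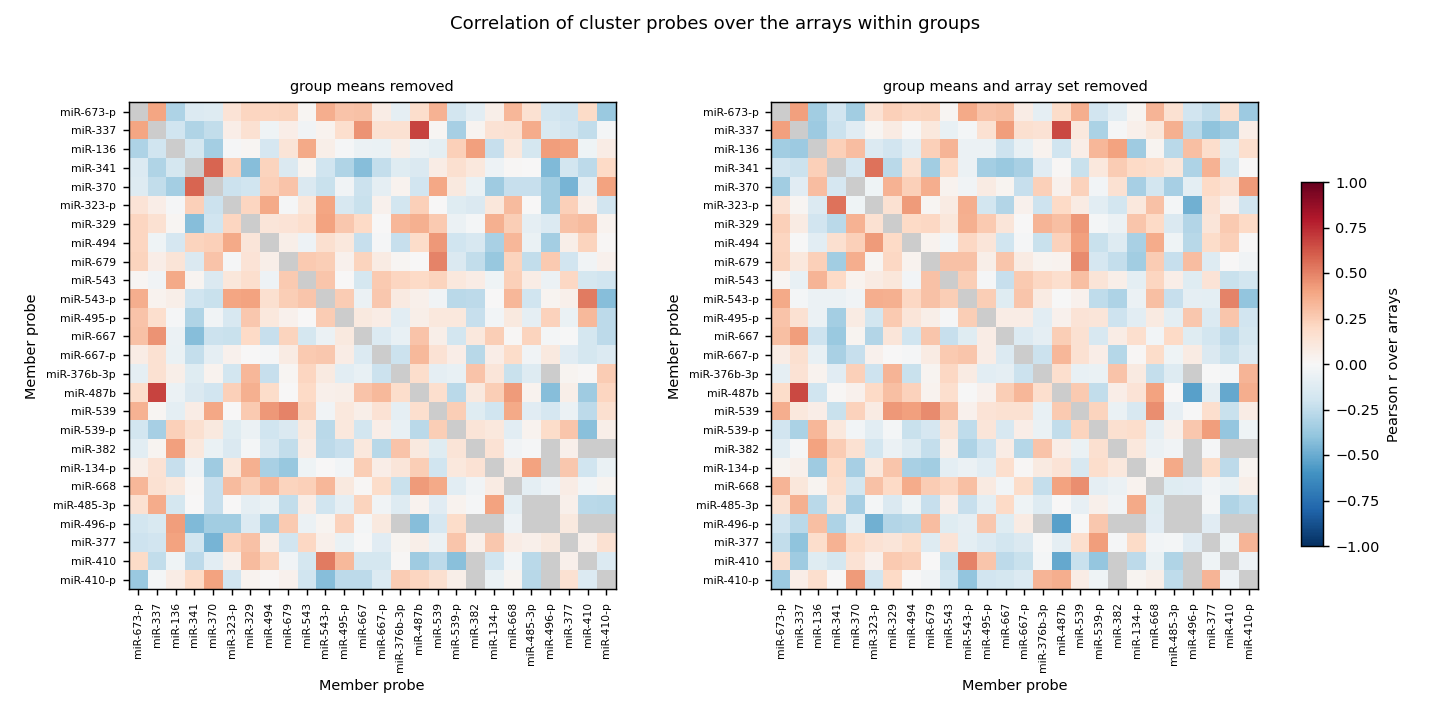
Pearson correlation over arrays (colour, from -1 in blue to 1 in red) for every pair of the 26 cluster probes measured on at least 30 arrays, in chromosome order on both axes, after removal of group means (left) and of group means and array set (right); grey cells have too few shared arrays or are the diagonal. Pale cells dominate both panels, the dark cell of miR-337 with miR-487b (0.67 and 0.66) stays, and that of miR-341 with miR-370 (0.58) turns to -0.17.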

How the data were processed

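The deposited table holds 1 value per probe and array, read here as log2 signal per the deposited values themselves, since the sources used here state neither scale nor scanner nor software; values run from 0.139 to 16.9. Of 26117 cells 10562 are empty. An array had 310 to 464 probes with a value, and the array median over probes measured on all arrays lay between 9.87 and 10.6 log2. The number of arrays limits the precision. Groups came from the sample titles. Arrays were quantile normalized, with empty cells ranked below measured ones and left empty, so a fit drops them and imputes nothing. The target was made monotone by isotonic regression (scikit-learn 1.9.0). One fit of 8 group means over all 41 arrays used limma 3.58.1 in R 4.3.3. A probe was tested where each group had at least 3 values, in 12 comparisons, with Benjamini-Hochberg adjustment over all probes tested and a threshold of 0.05. All p-values in the text come from this fit or a named alternative of it. The fit was tested on simulated data for some of the 12 comparisons. Those data held independent noise and no array set effect, so the test does not bear on the array sets. No 2 arrays were identical (largest correlation 0.989).

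The members, the lists and the marker lists were chosen with earlier results of these data known. Named were every member past the threshold in any comparison, a preset list of known cluster miRNAs and the 5 members of highest mean signal. Same-numbered treated and control arrays of a genotype correlated above 0.1 in 4 of 20 pairs (range -0.408 to 0.302), so the numbers were not taken as pairs. Alternatives were the deposited and the median-centred values, a low value (5.35 log2) for empty cells, other filters, array weights and robust variances. Others were the array set or the replicate number as a block, fits within an array set, and leaving out each array. Fits within a set were added after the data were seen. The correlations without miR-370 in the blocked, deposited and centred values were likewise not planned.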

Additional observations from a re-analysis of the deposited data

Results flagged for a closer look

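Single arrays of 22 named members were compared with the rest of their group by Dixon's test at its 95% critical value, in 164 groups of 4 to 6 values. 9 groups (5.49%) held an array beyond it, and about 1 in 20 would by chance. miR-370 had 3: C. parvum replicate 4 of p53KO at 12.404 log2, C. parvum replicate 6 of DKO at 9.084 and control replicate 6 of DKO at 11.309. The DKO arrays are those whose array set differs from the rest of their group. The same 2 arrays stood apart in miR-495-p (C. parvum replicate 6 of DKO, 11.058) and in miR-487b (control replicate 6 of DKO, 8.457). The other arrays were C. parvum replicate 3 of DKO for miR-376b-3p (8.147), C. parvum replicate 5 of p53KO for miR-496-p (5.445), control replicate 5 of p53KO for miR-323-p (8.133) and C. parvum replicate 3 of WT for miR-495-p (11.150).

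The treatment effect differed between DKO and WT by a test of the difference itself for miR-341 (1.306 log2), miR-412 (-2.359) and miR-679 (0.7445). None of these passed with the array set as a block, and the cause was not tested.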

How the results depend on the processing

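Of 58 member results past the threshold, 39 passed in every fit without 1 array and 38 with the array set as a block. Over the other settings, apart from the replicate block, 459 of 518 values kept direction and side of the threshold, 57 fell short of it and 2 turned sign: miR-377 in NOS2KO against WT controls with the array set as a block (0.01646 log2) and the mean effect of miR-679 in the values as deposited (-0.002343). Counts of called members that moved by over 1.5 times were, with the array set as a block, 1 for the DKO treatment effect, 1 and 0 for the NOS2KO and DKO differences from WT's effect, and 0, 1 and 2 for NOS2KO, p53KO and DKO controls against WT controls. The shares of all probes that passed were, in the same order, 2.95%, 0.984%, 2.89%, 0%, 0.318% and 11.7%. With array weights the called members were 8 for the DKO treatment effect, 6 for its difference from WT's and 6 for DKO controls. More of all probes passed with the weights too. For the DKO treatment effect 69 passed as higher and 57 as lower, against 30 and 22 without weights. For its difference from WT's 58 passed against 16, and for DKO controls 63 against 38. The NOS2KO effect gave 4 with only the arrays compared (39 of all 346 probes) and 3 within array set 2 (55 of 309). DKO controls gave 3 with only probes measured on all arrays (45 of all 227 such probes). They gave 2 as deposited (28 of all probes), centred (27), with at least 2 values (42), with robust variances (48) and within array set 1 (42). p53KO against NOS2KO controls gave 1 centred (4 of all probes), 1 with array weights (5) and 2 with the replicate block (7). That block, the only form of pairing tried, left miR-485-3p in p53KO short of the threshold (adjusted p = 0.0517) and changed no other named call. The causes were not tested.

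Without 1 array, called members ranged from 5 to 10 for the NOS2KO treatment effect, 3 to 8 for p53KO (3 without C. parvum replicate 4), 2 to 6 for DKO (6 without control replicate 6), 6 to 9 for WT and 13 to 17 for the mean. They stayed at 0 for the NOS2KO and p53KO differences from WT's effect, and ranged from 1 to 4 for DKO's (1 without its C. parvum replicate 5), 4 to 7, 6 to 8 and 1 to 4 for NOS2KO, p53KO and DKO controls against WT controls, and 0 to 2 between p53KO and NOS2KO controls. For DKO controls the count was 4 without DKO control replicate 5, 3 without WT control replicate 5 and 2 without WT control replicate 2. Between p53KO and NOS2KO controls it was 2 without p53KO control replicate 4 and 1 without NOS2KO control replicate 1. Shares of all probes were not counted for the fits without 1 array. The median correlation of members was -0.01156 as deposited (-0.005458 without miR-370), against 0.02474 for all probes. With only probes measured on all arrays it was 0.06939, against 8.024e-05 for all such probes. Centred and without miR-370 it was 0.07045, against 0.03002 for all probes. Without 1 array, the quantile-normalized values gave 0.01758 to 0.03944.

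No source here states the log base, the meaning of the -p ending or the origin of the array sets. Of the 71 members, 32 were measured on fewer than 10 arrays. The treatment effect was tested for 35 members in at least 1 genotype, so the rest could not be compared. Why cells are empty was not tested.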
